A study of Rattus norvegicus with 7 samples.

Results

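The transcripts described here come from 10 genes of blood vessels: the endothelial genes Cldn5 and Pecam1, the ligand gene Vegfa, the receptor genes Flt1, Kdr and Tek, the mural genes Pdgfrb, Acta2 and Myl9, and Cavin1, which codes for a coat protein of caveolae. They were chosen by gene symbol, and probes were assigned to them by transcript accession. All 10 were on the array, out of 15443 genes that could be named, and they were covered by 13 of 30367 probes. Vegfa had 4 probes and each of the other 9 genes had 1. All 13 probes passed the filter, which asked that at least 3 of 7 arrays show signal well above background. Cavin1 passed it through the MDD arrays (3 of 3, against 1 of 4 CTRL arrays) and the Vegfa probe A_64_P155983 mainly through the CTRL arrays (2 of 3 MDD arrays, against 4 of 4), in each case the group where it is high.

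RNA came from ground cerebellum of female Wistar rat pups aged 21 days and was measured on 1-colour Agilent arrays. Pups labelled MDD, for methyl donor deficiency (n = 3), had dams on a diet poor in vitamin B12 and folate, with choline reduced as well. Pups of the control group, labelled CTRL (n = 4), had dams on a standard diet. Feeding of both diets started 1 month before pregnancy and ended at weaning on postnatal day 21. No label names the dams, and some pups may be littermates. The diets were fed to dams, so littermates would not be independent replicates of a diet. In that case the p-values may be too small, and diet and litter could not be fully told apart. Granule neuron and Purkinje cell markers were present, with 12 of 12 and 9 of 11 distinct listed genes measured. In such bulk tissue, fewer cells of a type and less RNA per cell cannot be told apart.

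Brain capillaries are tubes of endothelial cells sealed by tight junctions, wrapped by pericytes, with smooth muscle cells around the larger vessels. Vegfa, secreted largely by glia and neurons in the brain, acts on endothelial cells through the receptor Kdr, while Flt1 binds the same ligand tightly and can hold it back. Tek is the endothelial receptor for the angiopoietins, and Pdgfrb is the receptor through which endothelial PDGF-B recruits pericytes. In the cerebellum, the vessel network is still growing during the first postnatal weeks, and transcription of Vegfa is a classical target of the hypoxia-inducible factors.

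Of the 13 probes, 5 changed between MDD and CTRL by limma with Benjamini-Hochberg adjustment over all 22255 probes tested (adjusted p under 0.05). Cldn5, Myl9 and Cavin1 were higher in MDD pups, and 2 of the 4 Vegfa probes were lower. The other 8 probes, among them all of Pecam1, Flt1, Kdr, Tek, Pdgfrb and Acta2, did not pass the test. Over the whole array 20.2% of probes changed, 12.2% higher and 8.03% lower, so changes were common. The count of 5 holds the 2 probes that passed the filter through the group where they are high, and is no support for a change in these genes as a set. Of the 11 probes well above background on all arrays, 3 changed, namely Cldn5, Myl9 and the brightest Vegfa probe. Among all 20328 probes that met this stricter filter, 24.7% changed, a similar share. The groups did not overlap for the same 5 probes, where 36.5% of all probes had groups that did not overlap. The median log2 change was 0.02 over the 13 probes and -0.04 over all probes tested.

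Promoter windows are shown first for the changed genes that had an entry in the RefSeq promoter table (assembly GRCr8, 250 bases before to 50 after the transcript start). The table held 6 of the 10 genes, namely Cldn5, Flt1, Kdr, Vegfa, Acta2 and Cavin1. The windows of Cldn5 (chr11:95718549-95718848, minus strand), Vegfa (the first of 2 windows, chr9:22452604-22452903, plus strand) and Cavin1 (chr10:86396334-86396633, minus strand) are printed 5′ to 3′ because these genes changed in opposite directions. Capitals mark a match on either strand to the GC box GGGCGG, bound by Sp1-type factors, or to ACGTG, a core of hypoxia-inducible factor sites.
Cldn5: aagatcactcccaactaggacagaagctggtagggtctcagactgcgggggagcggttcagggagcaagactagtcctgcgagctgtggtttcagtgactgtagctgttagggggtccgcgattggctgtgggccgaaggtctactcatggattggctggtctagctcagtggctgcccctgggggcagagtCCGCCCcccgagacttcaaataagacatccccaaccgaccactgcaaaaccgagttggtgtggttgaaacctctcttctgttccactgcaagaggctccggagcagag
Vegfa: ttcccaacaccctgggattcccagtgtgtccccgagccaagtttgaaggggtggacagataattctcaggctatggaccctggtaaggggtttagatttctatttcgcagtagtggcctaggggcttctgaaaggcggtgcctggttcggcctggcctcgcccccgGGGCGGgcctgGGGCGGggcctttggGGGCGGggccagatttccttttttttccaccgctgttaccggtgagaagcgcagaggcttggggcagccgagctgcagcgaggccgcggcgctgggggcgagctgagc
Cavin1: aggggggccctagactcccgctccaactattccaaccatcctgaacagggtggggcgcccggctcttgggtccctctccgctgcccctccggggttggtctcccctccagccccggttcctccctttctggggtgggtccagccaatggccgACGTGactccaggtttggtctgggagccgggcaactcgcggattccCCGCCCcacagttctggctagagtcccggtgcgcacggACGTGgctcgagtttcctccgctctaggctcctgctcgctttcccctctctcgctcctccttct

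The GC box was found in windows of 5 of the 6 genes with an entry, all but Acta2, and in 33.1% of all 33469 windows of the same length. The Vegfa window carried 3 GC boxes and those of Cldn5 and Cavin1 carried 1 each. ACGTG was found in Cavin1 alone among the 6 genes, at 2 places, against 19.3% of all windows. TATAAA was found in Flt1 alone (14.2% of all windows). The pattern searched for the CArG box, the site of serum response factor, was in none of the 6 (1.64% of all windows). Sites that differ from that pattern were not counted. CpG dinucleotides, where DNA methylation takes place, numbered 11 in the Cldn5 window, 18 in the Vegfa window printed and 20 in the Cavin1 window, with a median of 7 over all windows. These are matches of letters in a window, and neither a match nor its absence shows whether a factor binds there.

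Cldn5 codes for claudin-5, the main tight junction protein of the brain endothelium. Values are log2 intensities relative to the 75th percentile of the same array, and a difference of 1 is a doubling. Cldn5 stood at 1.31, 1.10 and 1.54 in the MDD pups, against 0.49, 0.76, 0.60 and 0.71 in the CTRL pups. All 3 MDD values lay above all 4 CTRL values. The means were 1.32 ± 0.22 in MDD (SD, n = 3) and 0.64 ± 0.12 in CTRL (SD, n = 4), a 1.59-fold rise (log2 0.67, SE 0.14, limma adjusted p = 0.0183). Leaving out CTRL replicate 3 or 4 moved the adjusted p to 0.0542 or 0.0533. Across the 11966 named genes, log2 change fell with gene length (Spearman's rho -0.40, a description over genes, which are not replicates), and at 1427 bases Cldn5 lay at percentile 3.55 of length. After removal of this dependence on length and signal, which left 10.2% of named probes called, the log2 change of Cldn5 was 0.12 (adjusted p = 0.431).

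Pecam1 codes for the adhesion molecule CD31, which marks endothelial cells along the whole vessel tree. It stood at -1.44, -1.77 and -1.46 in MDD pups, against -1.58, -1.63, -1.65 and -1.76 in CTRL pups. The groups overlapped. Its log2 change was 0.10 (95% interval -0.20 to 0.39, limma adjusted p = 0.607), so a change beyond 1.31-fold upwards lay outside the interval. Whether Cldn5 and Pecam1 differed in their change was not tested.

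**Figure D1:**
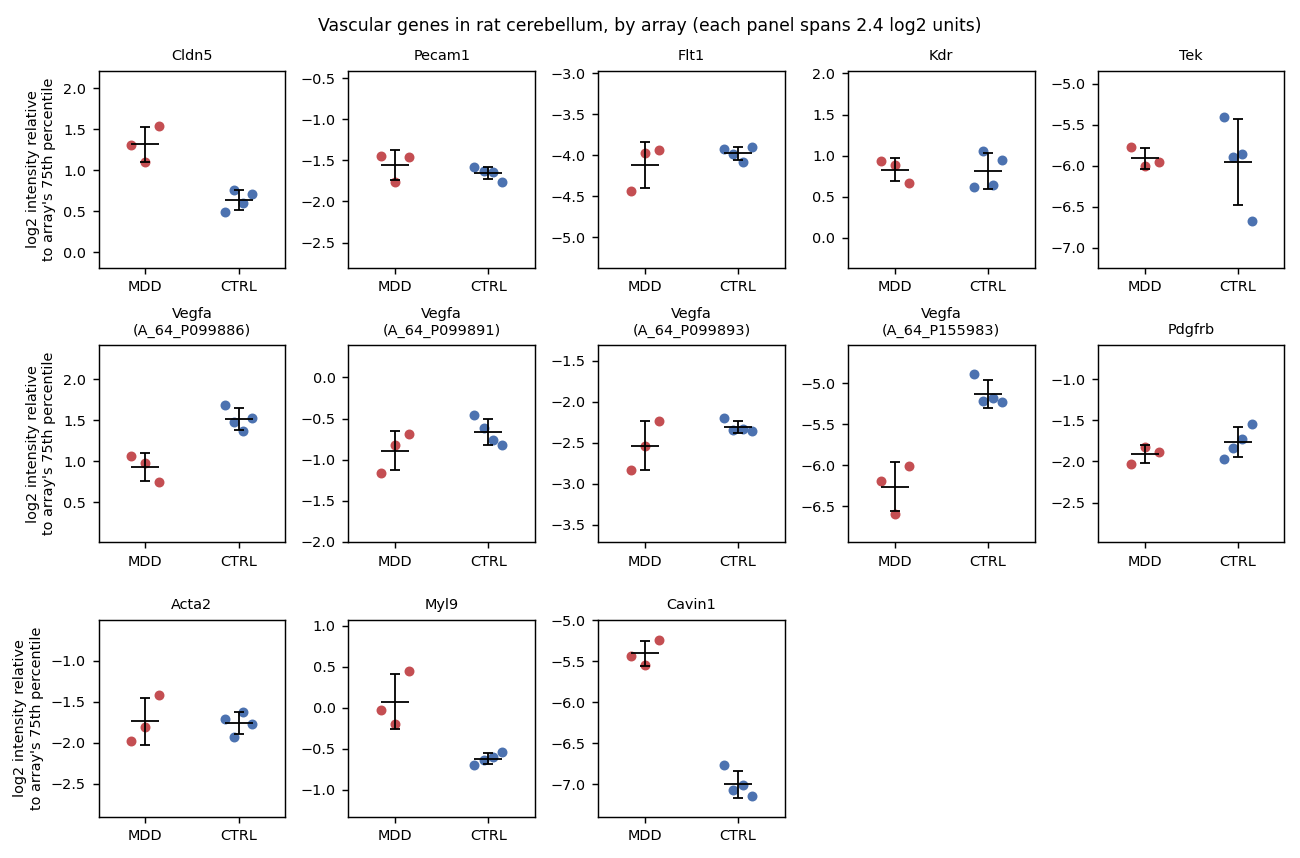
Log2 intensity relative to the array's 75th percentile (y axis, each panel spanning 2.4 log2 units) for the 13 probes, with 1 point per pup, MDD in red on the left and CTRL in blue on the right, and bars at the mean ± SD. The groups separate for Cldn5, Myl9, Cavin1 and the Vegfa probes A_64_P099886 and A_64_P155983, and overlap in the other 8 panels.

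Vegfa codes for the main vascular endothelial growth factor, and its transcript is spliced into several forms. The brightest of its probes, A_64_P099886, was designed on the transcript NM_031836. It stood at 1.07, 0.98 and 0.74 in MDD pups, against 1.68, 1.48, 1.36 and 1.53 in CTRL pups. No MDD pup reached the lowest CTRL pup. The MDD level was 0.668 times that of CTRL (log2 -0.58, SE 0.13, 95% interval -0.89 to -0.28, limma adjusted p = 0.0236). The adjusted p was 0.0579, 0.0555 and 0.0678 without CTRL replicates 1, 2 and 4.

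The dimmest Vegfa probe, A_64_P155983, was designed on the same transcript. It stood at -6.19, -6.59 and -6.00 in MDD pups, against -4.88, -5.22, -5.19 and -5.23 in CTRL pups. The groups did not overlap, with a fitted log2 change of -1.13 (SE 0.17, limma adjusted p = 0.00996). In MDD, 2 of its 6 spots were well above background, against 8 of 8 in CTRL, so the size of the change is uncertain. It was -0.39 in the authors' deposited table (adjusted p = 0.0199) and -0.29 with normexp background correction (adjusted p = 0.246).

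The other Vegfa probes, both designed on the transcript NM_001110334, did not pass. A_64_P099891 stood at -1.16, -0.83 and -0.69 in MDD pups, against -0.46, -0.62, -0.76 and -0.82 in CTRL pups. A_64_P099893 stood at -2.83, -2.54 and -2.24 in MDD pups, against -2.20, -2.34, -2.33 and -2.36 in CTRL pups. In both, MDD replicate 1 was the lowest pup and the groups overlapped. Both had a log2 change of -0.23 (95% interval -0.58 to 0.12 for each, limma adjusted p = 0.298 and 0.302). Without MDD replicate 1 the changes were -0.097 and -0.080, and without MDD replicate 3 they were -0.33 and -0.37.

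The 4 Vegfa probes thus all had lower means in MDD, with changes that ranged over 0.91 log2 units. Among 2074 named genes with at least 2 probes tested, the median range was 0.17 and 2.46% had a wider range than Vegfa, and among the 22 with at least 4 probes the median was 0.35 and 0% had a wider range. The range rests on the dimmest probe: with normexp the 4 changes were -0.53, -0.20, -0.17 and -0.29, from the brightest probe to the dimmest. Differences between the probes were tested within arrays for all 6 pairs, by two-sided exact permutation over the 35 ways of splitting the arrays, where the smallest possible p is 0.0286. The changes of A_64_P099891 and A_64_P099893 minus that of the dimmest probe were 0.90 and 0.91, each with an exact p of 0.0286, or 0.0857 after Benjamini-Hochberg adjustment over the 6 pairs, which does not pass. For the brightest probe minus the dimmest the difference was 0.55 (exact p = 0.0571, adjusted 0.114). The brightest probe differed from the same 2 probes by -0.35 and -0.36 with an exact p of 0.171 for each (0.206 adjusted). Pairs with the dimmest probe rest on signals near background, and that probe passed the filter mainly through the CTRL arrays. Their p-values are therefore no support for a difference between transcripts. The transcript positions of the probes were not used here.

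No receptor gene passed the test. Flt1, the high-affinity receptor that also exists as a soluble form, stood at -4.44, -3.97 and -3.94 in MDD pups, against -3.93, -3.99, -4.08 and -3.90 in CTRL pups. MDD replicate 1 was the lowest pup, and the other MDD pups lay inside the CTRL range. Its log2 change was -0.14 (95% interval -0.48 to 0.20, limma adjusted p = 0.508).

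Kdr, the receptor that carries most VEGF signalling in endothelium, stood at 0.94, 0.88 and 0.67 in MDD pups, against 0.62, 1.05, 0.64 and 0.94 in CTRL pups. The MDD values lay inside the CTRL range, and the log2 change was 0.02 (95% interval -0.33 to 0.36, limma adjusted p = 0.95). The interval leaves out a change beyond 1.28-fold upwards or to below 0.795 times.

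Tek, also known as Tie2, stood at -5.77, -6.00 and -5.95 in MDD pups, against -5.41, -5.90, -5.85 and -6.67 in CTRL pups. It was near background, with 3 of 6 spots well above it in MDD and 6 of 8 in CTRL, and the 2 spots of 1 array differed by up to 1.53 log2 units. The log2 change of 0.05 therefore had a wide interval (95% interval -0.55 to 0.65, limma adjusted p = 0.905).

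**Figure D2:**
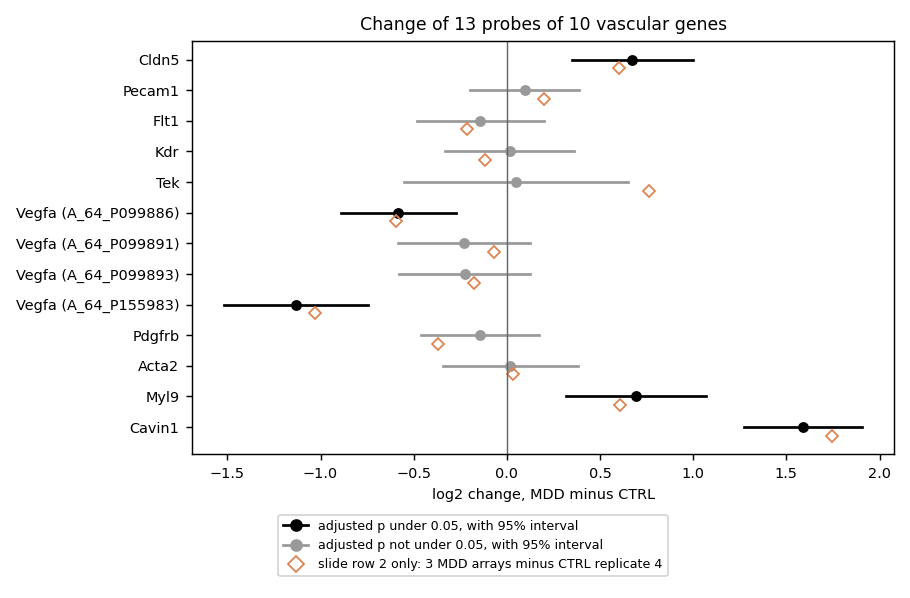
Log2 change, MDD minus CTRL (x axis), of the 13 probes (rows), with points at the fitted change and lines for the 95% interval, black where the adjusted p was under 0.05 and grey otherwise; open diamonds give the difference within slide row 2 alone, 3 MDD pups minus CTRL replicate 4. The 5 black intervals, of Cldn5, Myl9, Cavin1 and 2 Vegfa probes, do not reach 0. Their diamonds fall on the same side, which is fixed in advance where the groups do not overlap.

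Among the mural genes, Myl9, the regulatory light chain of smooth muscle and non-muscle myosin, was higher. It stood at -0.03, -0.20 and 0.45 in MDD pups, against -0.70, -0.64, -0.60 and -0.54 in CTRL pups. The CTRL pups lay close together and every MDD pup above them, with MDD replicate 3 highest. The means were 0.07 ± 0.33 in MDD (SD, n = 3) and -0.62 ± 0.07 in CTRL (SD, n = 4), a 1.62-fold rise (log2 0.69, SE 0.16, limma adjusted p = 0.0254). The call was lost without any 1 of the 4 CTRL replicates, where log2 changes were 0.66 to 0.72 and adjusted p 0.0603 to 0.0629, and after removal of the dependence on gene length and signal (log2 0.48, adjusted p = 0.0504).

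Acta2, the smooth muscle actin of arterioles and a marker of contractile mural cells, stood at -1.98, -1.81 and -1.42 in MDD pups, against -1.71, -1.93, -1.62 and -1.77 in CTRL pups. The MDD pups spread on both sides of the CTRL pups, and the log2 change was 0.02 (95% interval -0.35 to 0.38, limma adjusted p = 0.945). Pdgfrb, the defining receptor of pericytes, stood at -2.03, -1.82 and -1.88 in MDD pups, against -1.97, -1.83, -1.72 and -1.54 in CTRL pups. Its groups overlapped as well, with a log2 change of -0.14 (95% interval -0.46 to 0.17, limma adjusted p = 0.466).

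Cavin1 codes for cavin-1, which caveolin needs to form caveolae, the membrane pits of endothelial and mural cells. It stood at -5.43, -5.54 and -5.24 in MDD pups, against -6.76, -7.06, -7.01 and -7.15 in CTRL pups. All 6 MDD spots were well above background, against 1 of 8 in CTRL. The fitted change was 1.59 on the log2 scale (SE 0.14, limma adjusted p = 0.00952), or 3.01-fold. Because most CTRL spots were not well above background, the fold rests on small differences from it. With each CTRL array set to the lowest signal well above background on that array, Cavin1 was 1.85-fold higher in MDD. That is not a lower limit, since a spot not well above background can exceed that signal. In the authors' deposited table the log2 change was 0.53 (adjusted p = 0.0114), and with normexp correction it was 0.48 (adjusted p = 0.0775). The raw spot medians ran from 82 to 108 in MDD and from 59 to 80.5 in CTRL, without overlap. These medians are not scaled between arrays. They come from the same spots through which Cavin1 passed the filter in MDD, and so are no separate support.

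The arrays lay on 1 slide in 2 rows. Row 1 held CTRL replicates 1, 2 and 3, and row 2 held CTRL replicate 4 and all 3 MDD arrays, so row and diet can be told apart through CTRL replicate 4 alone. Within row 2, the 3 MDD arrays minus that array gave log2 differences of 0.60 for Cldn5, 0.61 for Myl9, 1.74 for Cavin1, -0.60 for the brightest Vegfa probe and -1.03 for the dimmest. Each of the 3 MDD arrays lay on the side given by the sign, which is fixed in advance for probes whose groups do not overlap. With row as a covariate, limma called 0 of the 13 probes and 1 of all 22255. An unadjusted p under 0.05 was reached by 4497 of the 22255 and by 5 of the 13, Cldn5, Cavin1, Tek and the same 2 Vegfa probes, while Myl9 had 0.0536. In this fit the adjusted p was 0.218 for Cldn5, 0.254 for Myl9, 0.140 for Cavin1 and 0.210 and 0.142 for the 2 Vegfa probes. Tek differed by 0.76 within row 2, since CTRL replicate 4 was its lowest array.

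**Figure D3:**
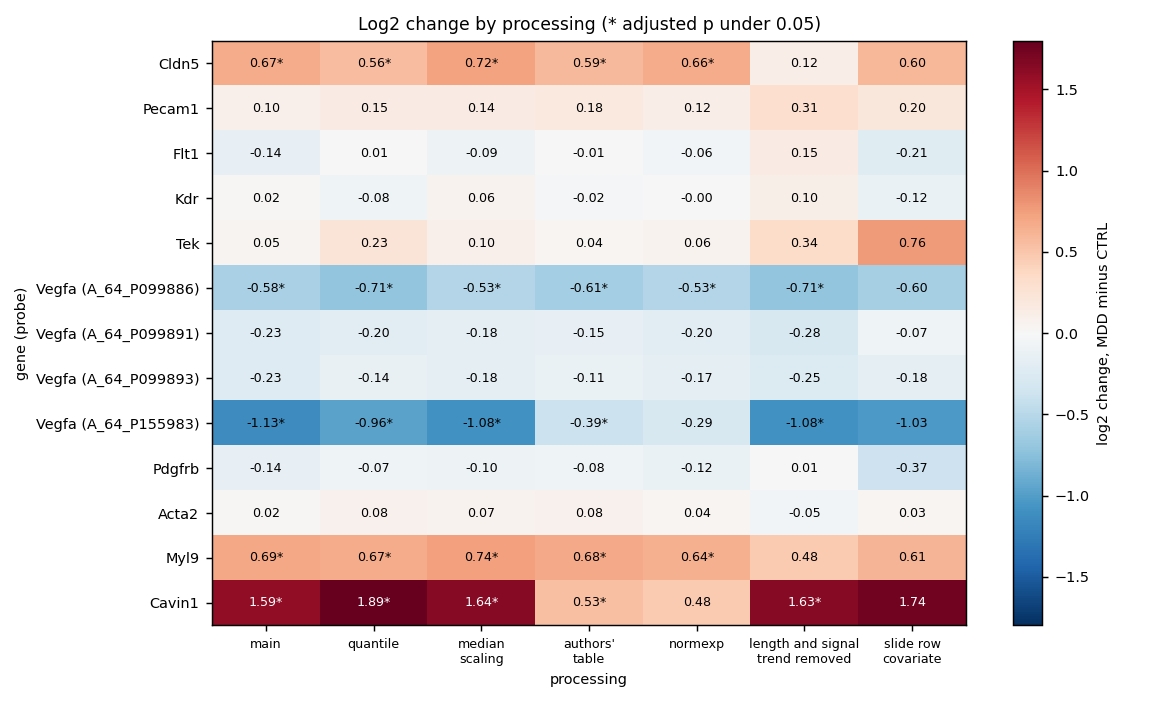
Log2 change, MDD minus CTRL (colour and number), of the 13 probes (rows) under 7 ways of processing (columns), with an asterisk where the adjusted p was under 0.05. The change of Vegfa A_64_P099886 lay between -0.71 and -0.53, those of Cldn5 and Myl9 were 0.12 and 0.48 with the length and signal trend removed, and those of Cavin1 and Vegfa A_64_P155983 were smaller in the authors' table and with normexp.

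The wider vascular gene lists were read from the brightest probe of each gene. Over 7 overlapping lists, 114 genes were measured, of which 10 were higher and 8 lower in MDD (15.8%), against 18% of all 11966 named genes (11.2% higher and 6.79% lower). The share was thus close to that of the array, and by list it ran from 5.26% to 29.4%. The list medians lay between -0.05 and 0.09 on the log2 scale, and the median of all named genes was -0.02. Without the 10 genes of this account, 7 of 104 were higher and 7 lower.

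Of 23 endothelial genes measured, 2 were higher and 0 lower, with a median log2 change of 0.02. Besides Cldn5 this was Icam2, an adhesion molecule of endothelium and platelets, at 1.55-fold (log2 0.63, SE 0.18, limma adjusted p = 0.0400). The other genes, among them Cdh5, the cadherin of endothelial junctions (0.31, adjusted p = 0.338), Tie1 (-0.26, 0.175) and Cd34 (-0.01, 0.981), did not pass.

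The blood-brain barrier list had 1 of 19 members higher, Cldn5, and 3 lower. The lower ones were the transferrin receptor gene Tfrc (log2 -0.70, adjusted p = 0.0218), the junctional scaffold gene Tjp1 (-0.60, 0.0330), which codes for ZO-1, and Lef1 (-0.55, 0.0157), a transcription factor of the Wnt pathway. The other probe of Tfrc had a log2 change of -0.35, and those of Tjp1 and Lef1 -0.30 each. After removal of the dependence on length and signal, Tjp1 (-0.33, adjusted p = 0.113) and Lef1 (-0.27, 0.116) no longer passed. These genes are also expressed outside vessels. The glucose transporter gene Slc2a1 (-0.05, adjusted p = 0.848) and the lipid transporter gene Mfsd2a (0.15, 0.346) did not pass.

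Of 22 mural genes, 4 were higher, Myl9 and Cavin1 among them, and 1 was lower, with a median log2 change of -0.04. The share called was 22.7%, against 18% of all named genes. Cavin1 passed the filter through the MDD arrays, where it is high. Without the genes of this account, 2 of 18 mural genes were higher and 1 was lower. Higd1b, a pericyte marker, rose 2.36-fold (log2 1.24, SE 0.19, limma adjusted p = 0.0104), standing at -0.26 ± 0.41 in MDD (SD, n = 3) and -1.49 ± 0.12 in CTRL (SD, n = 4). Tpm2, a tropomyosin, rose 1.43-fold (adjusted p = 0.0475). Cald1, caldesmon, fell by 0.64 on the log2 scale (adjusted p = 0.0239) in its brightest probe, but its other probe had a log2 change of 0.46. After removal of the dependence on length and signal, neither Tpm2 (0.43, adjusted p = 0.0618) nor Cald1 (-0.36, 0.0834) passed. The pericyte genes Rgs5 (-0.20, adjusted p = 0.410) and Cspg4 (-0.27, 0.334) and the smooth muscle gene Myh11 (-0.38, 0.0755) did not pass.

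The contractile list shares Myl9, Acta2, Tpm2, Cald1 and others with the mural list. Of its 17 members, 4 were higher and 1 lower, with a median log2 change of 0.02. The myosin light chain gene Myl6, which nearly all cells express, rose 1.67-fold (log2 0.74, SE 0.13, limma adjusted p = 0.0124), and after removal of the dependence on length and signal its log2 change was 0.06 (adjusted p = 0.665). Actg2, the enteric smooth muscle actin, rose 1.42-fold (adjusted p = 0.0293), with its other probe at a log2 change of 0.57. Tagln (0.58, adjusted p = 0.0846) did not pass.

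In VEGF and angiopoietin signalling, 0 of 19 genes were higher and 1, Vegfa, was lower by limma. Notch1 (log2 -0.56, adjusted p = 0.118) and Dll4 (0.53, 0.133), a receptor and a ligand of vessel sprouting, had the smallest p of the rest and did not pass. A further probe of Notch1 had a log2 change of -1.13, and one of Dll4 0.31. The ligand genes Vegfb (0.01, adjusted p = 0.985), Vegfc (-0.07, 0.784) and Pgf (0.50, 0.154) and the angiopoietin genes Angpt1 (-0.05, 0.859) and Angpt2 (0.13, 0.594) did not pass either.

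The hypoxia response list had 1 of 21 members higher and 4 lower, Vegfa included, with a median log2 change of -0.04. Of the hypoxia-inducible factor genes, 3 were lower: Hif1a at -4.25 ± 0.50 in MDD (SD, n = 3) and -3.08 ± 0.45 in CTRL (SD, n = 4; log2 -1.17, limma adjusted p = 0.0300), its endothelial relative Epas1 (-0.56, 0.0417) and their partner Arnt (-0.94, 0.0317), which was well above background on 1 of 3 MDD arrays. Arnt met the filter mainly through the CTRL arrays, the group where it is high. Its adjusted p is therefore no support for a lower level in MDD. The counts of 3 lower factor genes and 4 lower list members include it. Hif3a, another of the hypoxia-inducible factor genes, did not pass (0.05, adjusted p = 0.839). Ldha, lactate dehydrogenase A, was 1.55-fold higher (adjusted p = 0.0329). After removal of the dependence on length and signal, Hif1a (-0.96, adjusted p = 0.0663), Epas1 (-0.32, 0.144), Arnt (-0.72, 0.0755) and Ldha (0.24, 0.255) no longer passed. Other common targets of these factors did not pass, with Adm at a log2 change of 0.01 (adjusted p = 0.960), Ndrg1 at -0.04 (0.896) and Pgk1 at 0.39 (0.0540).

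Of 11 caveolar genes, 2 were higher and 0 lower. Beside Cavin1 this was Cavin3, another cavin, at 1.05 ± 0.51 in MDD (SD, n = 3) and 0.05 ± 0.29 in CTRL (SD, n = 4), a rise with an SE of 0.25 on the log2 scale (limma adjusted p = 0.0301). After removal of the dependence on length and signal its log2 change was 0.52 (adjusted p = 0.107). The share called was 18.2%, against 18% of all named genes. Cavin1 passed the filter through the MDD arrays, where it is high, and without it 1 of 10 caveolar genes was higher. The caveolin genes Cav1 (-0.30, adjusted p = 0.276) and Cav2 (-0.19, 0.398) and the cavin gene Cavin2 (-0.45, 0.0937) had lower means and did not pass. After the same removal, Cavin2 passed as lower in MDD (log2 -0.83, limma adjusted p = 0.0373).

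**Figure D4:**
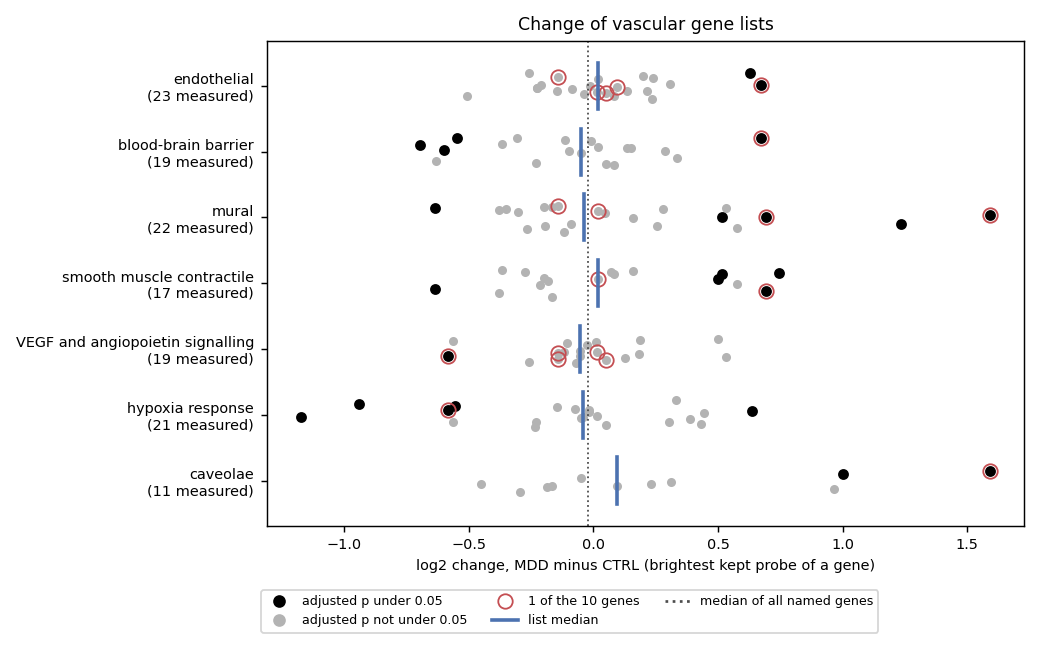
Log2 change, MDD minus CTRL (x axis), of each measured gene of 7 vascular lists (rows), black where the adjusted p was under 0.05 and grey otherwise, with red rings around the 10 genes described, a blue bar at the list median and a dotted line at the median of all named genes (-0.02). The medians stay between -0.05 and 0.09, while single genes such as Higd1b, Cavin3 and Hif1a lie apart on either side.

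Marker lists of other cells were counted in the same way, against 18% of all named genes, and their part in the results was not tested. Microglial, Purkinje cell and granule neuron genes had larger shares called than that (66.7%, 55.6% and 25%). Of 12 microglial genes 7 were higher and 1 lower, and their summed level (linear, relative to the 75th percentile) was 16.6 to 21.7 over the MDD arrays and 13.3 to 13.9 over the CTRL arrays. Of 16 genes of vascular fibroblasts and meninges, 2 were higher, with sums of 32.5 to 44.6 in MDD and 22.8 to 38.6 in CTRL. Red blood cell genes, a sign of blood left in the tissue, had 1 of 8 higher, with sums of 178 to 526 in MDD and 134 to 228 in CTRL. Choroid plexus genes had 0 of 12 called by limma, and sums of 118 to 280 in MDD and 102 to 141 in CTRL. The summed endothelial list, which holds Cldn5, was 15.4 to 16.9 in MDD and 14.2 to 14.8 in CTRL. With Cldn5 left out, the endothelial sums of MDD and CTRL arrays overlap. The summed mural list, which holds Myl9, Higd1b and, as a far smaller part, Cavin1, was 8.30 to 10.1 in MDD and 7.42 to 8.05 in CTRL. No mural sum without these genes is given. Astrocyte and Bergmann glia genes had 1 of 11 higher (302 to 338 in MDD, 254 to 275 in CTRL). Purkinje cell genes had 3 of 9 higher and 2 lower (248 to 315 in MDD, 209 to 233 in CTRL). Granule neuron genes had 3 of 12 lower (87.1 to 100.7 in MDD, 92.0 to 104 in CTRL), and oligodendrocyte genes 1 of 10 lower (240 to 369 in MDD, 255 to 273 in CTRL).

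By Pearson's r over the 7 arrays, the named genes whose values followed Cldn5 most closely were Tmem179b (0.998), Romo1 (0.997) and Ccdc22 (0.997). Those closest to the brightest Vegfa probe were Samd12 (0.988), Ppig (0.986) and Relch (0.983). Closest to Acta2 were Ankh (0.979), Rexo1 (0.975) and Dok7 (0.968), and closest to Cavin1 were Ogfr (0.997), Bok (0.993) and Mogs (0.993). With 7 arrays, high r is common: 1217 genes reached 0.9 with Cldn5, 974 with Cavin1, 385 with Vegfa and 81 with Acta2 among 11958 compared. Cldn5 and Myl9 correlated at 0.97 over all 7 arrays, and at 0.86 when each pup was taken relative to its group's mean. Cldn5 and Cavin1 correlated at 0.91 over all arrays and 0.09 relative to the group means.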

How the data were processed

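Total RNA from cerebellum was labelled with Cy3 and hybridised to Agilent arrays, 1 per pup, per the labels' protocols. The deposited scanner tables (Feature Extraction, version 10.7.3.1 in their headers) hold linear intensities. Background was subtracted and a spatial trend removed to give the processed signal, per the file headers. Raw medians were also used, with flags that the deposited tables score as 0 or 1. The authors' deposited table holds normalized intensities by a method not given in the sources used here, with columns that name the group only.

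Values are log2 of the processed signal over each array's 75th percentile (1136 to 2085 intensity units), with control and outlier spots left out and the log2 values of a probe's spots averaged. The share of spots well above background was 74.0% to 79.4%, with 0 saturated. Precision is limited by the number of arrays. Probes well above background (at least 50% of their spots) on at least 3 of 7 arrays were kept, 22255 of 30367. Symbols came from matching accessions to a RefSeq table of GRCr8, which named 18355 probes. Groups were taken from the sample titles. The test was limma's moderated one (version 3.58.1, R 4.3.3, two-sided, 5 residual degrees of freedom, 8.49 with the prior), adjusted over all kept probes. On simulated arrays of 22251 probes, this test found 50 of 100 probes shifted by log2 1 and 2 of 100 shifted by 0.5, and made 7 false calls. Only these probes were shifted there, whereas 20.2% of probes were called in the data. The adjustment depends on that share, so the simulation does not give the power of the test on these data. 18 alternatives were run. Normexp (offset 50) used the raw median signals, since the mean signals that had been planned are not a column of the tables, and the trend with gene length and signal was removed by loess (span 0.3).

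All 10 genes and every probe of them are reported. From each wider list, up to 5 further genes that passed are named by smallest p, or the 2 of smallest p where none passed, and for Cldn5, Vegfa, Acta2 and Cavin1 the 3 most correlated genes. Genes named beyond this rule were added after their values were seen and are given for context. The genes and lists were chosen with earlier results of these data known.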

Additional observations from a re-analysis of the deposited data

Results flagged for a closer look

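In 3 of 31 CTRL groups of 4 tested, 1 array stood apart by Dixon's criterion (gap to the nearest array over the whole range), and chance alone gives about 1 in 20. For the Vegfa probe A_64_P099893, CTRL replicate 1 was higher than the other CTRL arrays (-2.20 against -2.36 to -2.33, gap over range 0.842). For the Vegfa probe A_64_P155983, CTRL replicate 1 was again the higher one (-4.88 against -5.23 to -5.19, 0.868). The summed level of the microglial list was highest in CTRL replicate 3 (13.9 against 13.3 to 13.4, 0.838).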

How the results depend on the processing

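The count of probes changed over the whole array, 4502, was 1783 with no filter, 1458 with the trend with gene length and signal removed (fewer probes tested), 1 with slide row as a covariate (4497 at unadjusted p under 0.05) and 1157 to 5823 without 1 replicate, lowest without CTRL replicate 4. Higher calls were 60.3% of these, and 70.7% with normexp. The count of 5 among the 13 vascular probes was 3 with normexp, 3 with no filter, 3 among the 11 probes well above background on all arrays, 3 with the trend removed, 0 with row as a covariate (5 at unadjusted p under 0.05) and 2 to 5 without 1 replicate (3 without CTRL replicate 1, 2 or 3, and 2 without CTRL replicate 4). The 18 genes called in the wider lists were 5 with no filter, 7 with the trend removed, 0 with row as a covariate (21 at unadjusted p under 0.05) and 3 to 23 without 1 replicate (10 and 11 without MDD replicates 1 and 3, and 6, 8, 4 and 3 without CTRL replicates 1, 2, 3 and 4). Without CTRL replicate 3 and without CTRL replicate 4 the adjusted p of Cldn5 was 0.0542 and 0.0533, and the brightest Vegfa probe lost its call without CTRL replicates 1, 2 and 4 (adjusted p = 0.0579, 0.0555 and 0.0678) and with no filter (0.0554). Myl9 had an adjusted p of 0.0583 with no filter. Changes near 0 turned sign. Flt1 was 0.0087 with quantile normalization, 0.15 with the trend removed and -0.23 to 0.018 without 1 replicate. Kdr was -0.083 with quantile normalization, -0.0018 with normexp, -0.018 in the authors' deposited table, -0.12 with row as a covariate and within row 2 alone, and -0.049 to 0.095 without 1 replicate. Tek was -0.19 to 0.23 without 1 replicate, Pdgfrb 0.0066 and Acta2 -0.049 with the trend removed, and Acta2 -0.14 to 0.14 without 1 replicate. The cause of each was not tested. Differences within row 2 alone and lists without the 10 genes were added after seeing the data. Replicate numbers did not pair the arrays: deviations of same-numbered arrays correlated at 0.10, -0.18 and 0.21, and 1 of 3 MDD arrays correlated best with its own number. With the replicate block, limma called 1 probe in all (6930 at unadjusted p under 0.05), 0 of the 13 (5) and 0 of the list genes (24), and Tek had a log2 change of -0.19. For dim probes (Tek, Cavin1 and Vegfa A_64_P155983) signal over background limits the size of a change.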
